A study of Mus musculus with 21 samples.

Results

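Muscle stem cells of Rptor knockout mice were compared with those of wild-type (WT) mice, both taken from the hindlimb opposite an injured one. The injury was an injection of BaCl2, a salt that kills muscle fibres, and the cells were collected 2.5 days later from the contralateral, uninjured limb; such contralateral cells are abbreviated CSC. The samples were chosen by title. They are 2 arrays of 1 Rptor knockout pool and 4 arrays of 3 WT pools, together 6 of the 21 arrays and 4 of the 12 pools of the series. No array of cells from noninjured animals entered this comparison. A fit of all 12 pools is given beside it and takes part of its spread from such arrays. Genes read by a probeset with 1 gene symbol were considered, and 13957 of these 19939 named genes passed the filter on low signal and were tested.

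The WT mice were Pax7CreER/+;Rosa26REYFP/+ and the knockout mice Rptrflox/flox;Pax7CreER/+;Rosa26REYFP/+, both of strain "mixed C57BL6" and 3 to 5 months old. All of them carried the tamoxifen-dependent Cre driven by Pax7, had received tamoxifen at least 2 weeks before, and had 1 hindlimb injured. Each pool held cells of 3 to 4 mice, sorted as YFP-positive and lysed without culture, and 100 ng of RNA went onto an Affymetrix Mouse Gene 1.0 ST array. YFP shows that the reporter recombined in a cell and not that both Rptor alleles did. The knockout arrays are titled as technical replicates and were averaged to 1 pool, so genotype and pool cannot be told apart here, and the knockout has no spread of its own.

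Rptor encodes raptor, the scaffold that brings substrates to the kinase mTOR in the complex mTORC1. mTORC1 is switched on at the lysosome by growth factors and amino acids, and it is known for promoting protein, nucleotide and sterol synthesis and mitochondrial gene expression while holding back autophagy and lysosomal genes. Muscle stem cells, also called satellite cells, lie quiescent beside the fibre and are marked by Pax7. After an injury elsewhere in the body they can pass into GAlert, a primed state that is still outside the cell cycle proper and that the title of the series ties to mTORC1. The comparison asks how the transcripts of such cells differ when Rptor is deleted in them.

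The targeted gene was measured first. Rptor read 9.84, 9.47 and 9.43 (log2 signal) in WT pools 1, 2 and 3, and 8.73 and 8.96 on the 2 knockout arrays. Both knockout arrays lay below every WT array, a difference of -0.73 ± 0.20 (SE, 1 pool against 3), but it missed the threshold of 0.05 in the limma fit (Benjamini-Hochberg adjusted p = 0.0566, and 0.179 in a fit of all 12 pools). It passed with arrays centred on their medians (0.0422), with first arrays only (0.0255), with the first knockout array only (0.0401), without WT pool 1 (0.00804) or 3 (0.0495), and in both fits that count arrays singly (0.00537 and 0.0174), and missed it without WT pool 2 (0.103). It also missed after quantile normalization again, without the low-signal filter, with a stricter filter and with the mean of all probesets. Further misses came with an alternative variance model, with the second knockout array only and with first arrays over all 12 pools. Whether the probeset reads the exons between the flox sites is not given in the sources used here, so residual signal cannot be set against the efficiency of the deletion. The partner kinase Mtor read 9.58, 9.21 and 9.0 in WT and 8.80 and 9.04 in the knockout, a difference of -0.34 (adjusted p = 0.352).

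Of the 13957 genes, 447 were higher in the knockout (3.2%) and 1204 lower (8.63%) at an adjusted p under 0.05 in limma. More than 2-fold differences were found for 142 of the higher and 405 of the lower genes. In a fit of all 12 pools of the series, 136 genes were higher (0.974%) and 400 lower (2.87%). These 536 genes were all among those called by the 4-pool fit. The 12-pool fit takes its spread from the 3 WT CSC pools and the 3 pools from noninjured WT mice. Every other group of the series is 1 pool and adds no spread. Counted without a model, both knockout arrays lay above all 4 WT arrays for 2581 genes (18.5%) and below them for 3639 (26.1%). These shares over all genes are the background for the counts by gene list given below. The counts depended on which WT pool was left out: 1899 higher and 2750 lower without pool 1, 189 and 536 without pool 2, and 310 and 944 without pool 3. The median difference over all genes was -0.0086 on the log2 scale, and re-normalizing the arrays by quantiles moved the split from 447 higher and 1204 lower to 783 higher and 993 lower. With 1 pool against 3, an exact permutation test of a single gene cannot give a p below 0.25, so every call rests on the spread that limma shares across genes and on the assumption that the knockout pool varies as WT pools do. The labels describe WT pools as biological replicates, and p in the 4-pool fit measures the spread between those 3 pools only.

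**Figure D1:**
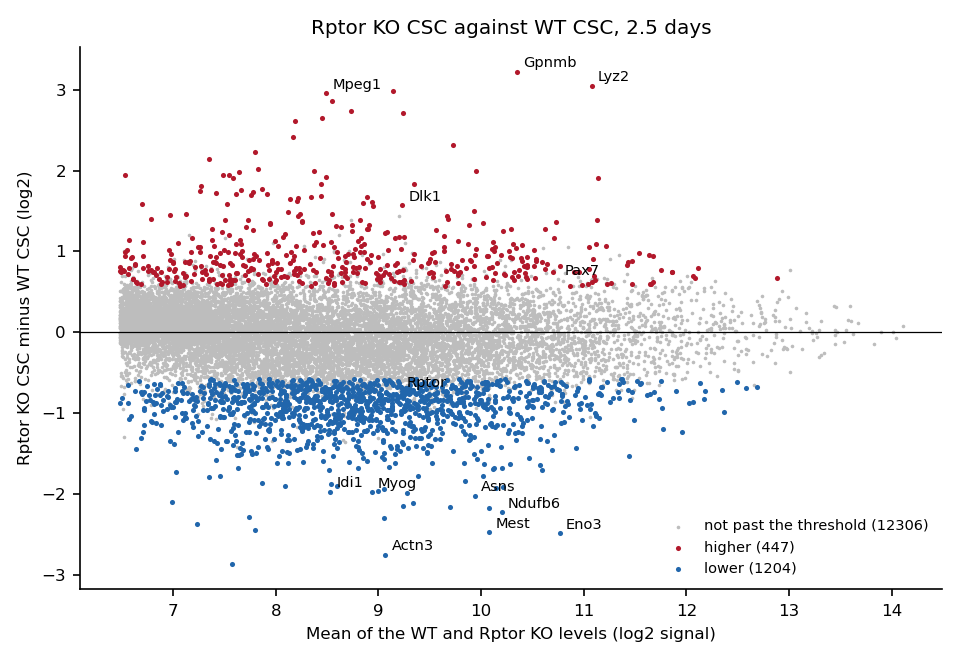
Each point is 1 of the 13957 tested genes, with the mean of the WT and knockout levels (log2 signal) on the horizontal axis and the knockout minus WT difference (log2) on the vertical axis. Genes called higher (447, red) reach +3.22 at Gpnmb, genes called lower (1204, blue) are the more numerous, and Rptor and Pax7 lie among the uncalled genes (grey).

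Array medians lay between 7.08 and 7.19. Across genes the WT pools correlated with one another at r = 0.979 to 0.993 and the knockout pool with them at 0.939 to 0.947. The second arrays of the knockout pool and of WT pool 1 stood apart from their first arrays in a like way: the second-minus-first differences of these 2 pools had a correlation of 0.692 across genes. With only the first array of each pool 508 genes were higher and 1128 lower, and none of the 1651 called genes changed sign.

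Markers of the sorted cells, taken as a list, were near their WT level. Of 12 satellite cell markers, 1 passed the threshold, Chrdl2 (+0.60 ± 0.15, adjusted p = 0.0427; 0.265 in the 12-pool fit), and the median difference was +0.10. Pax7, the transcription factor that defines these cells and drives the Cre, read 10.63, 10.36 and 10.27 in WT and 11.03 and 11.13 in the knockout (+0.66 ± 0.19, adjusted p = 0.0616). Both knockout arrays of Pax7 lay above all 4 WT arrays. Pax7 passed in some alternatives, among them first arrays only and without WT pool 1. In others it missed, among them the 12-pool fit and the fits without WT pool 2 or 3. The myogenic factors Myf5 (+0.08) and Myod1 (+0.05), the calcitonin receptor Calcr (+0.04) and the surface protein Cd34 (-0.18) had adjusted p between 0.645 and 0.895. None of these 4 separated the groups: their knockout levels lay inside the range of the WT arrays.

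Macrophage transcripts gave most of the largest rises in the knockout pool. Of 22 macrophage and monocyte markers tested, 20 rose, with a median difference of +1.78, against a background of 3.2% of genes higher; 18 rose in the 12-pool fit and between 18 and 22 when a WT pool was left out. Lyz2, a lysozyme of myeloid cells, read 9.21, 9.57 and 9.87 in WT and 12.67 and 12.53 in the knockout, 8.28-fold higher (+3.05 ± 0.25, adjusted p = 0.00269). The complement subunit C1qb read 7.76, 7.86 and 8.03 in WT and 10.70 and 10.49 in the knockout (+2.71 ± 0.17, adjusted p = 0.00148). Neither gene overlapped between the groups. The receptors that define macrophages rose too: Csf1r, the receptor for colony-stimulating factor 1, by 1.70, Adgre1, an adhesion receptor, by 1.81, and the lysosomal glycoprotein Cd68 by 1.99. Ptprc, the pan-leukocyte antigen CD45 (+0.63, adjusted p = 0.0514), and Cx3cr1, a chemokine receptor (+0.48, adjusted p = 0.0805), did not pass. Summed on the linear scale, all 23 markers on the array, tested or not, gave 20010 signal units in the knockout and 4195 to 4319 in the WT pools.

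Of the 15 genes with the largest rises, 9 were in the macrophage list. The others included Mpeg1, a pore-forming protein of phagocytes (7.77-fold), C3ar1, a receptor for a complement fragment (7.28-fold), Wfdc17 (7.88-fold), Cybb, a subunit of the phagocyte oxidase (4.04-fold), and Ms4a6d (4.43-fold). In bulk RNA a higher level of a cell type's transcripts can come from more cells of that type or from more RNA per cell, and these cannot be told apart. The pools had been sorted as YFP-positive, a gate on a reporter switched on by Pax7-driven Cre that should leave macrophages out, and from which cells these transcripts came was not tested. The other marker lists moved less by their medians. Of 24 endothelial markers 3 rose, Cd93 (+1.39), Aqp7 (+0.73) and Ptprb (+0.80), and all 24 had a positive difference, with a median of +0.57; none rose in the 12-pool fit, and 16, 3 and 2 rose without WT pools 1, 2 and 3. Of 7 MHC class II genes 5 rose (71.4%, against 3.2% of all genes), with a list median of +0.83. They were H2-Eb1, H2-Ab1, H2-DMa, Cd74 and H2-Aa, with differences from +0.81 to +0.97. Of these only H2-Eb1 passed in the 12-pool fit, and without WT pool 2 the count was 2. Among 19 markers of fibro-adipogenic progenitors the collagen chain Col1a1 rose (+0.68) and Col1a2 fell (-0.85), neither in the 12-pool fit, and none of 14 pericyte, 3 lymphocyte and 6 Schwann cell markers passed.

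**Figure D2:**
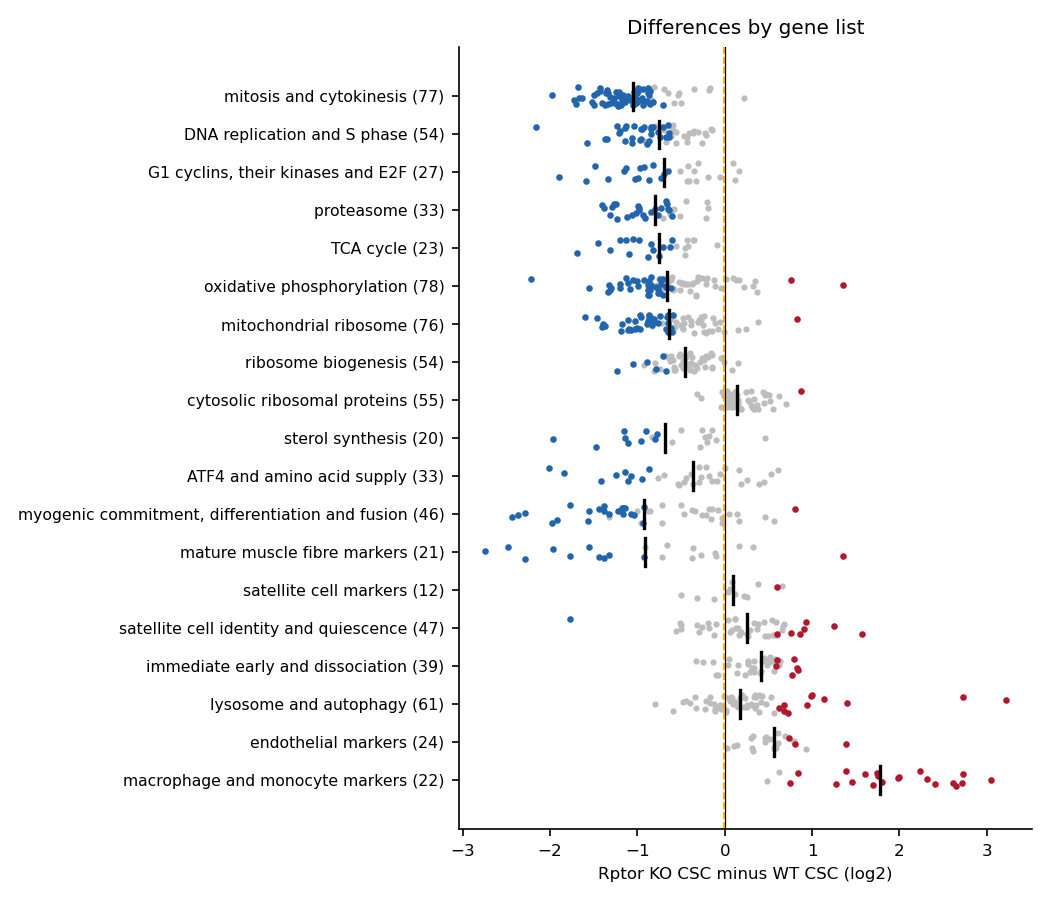
Each row is a gene list, with the number of tested members in brackets, and each point a gene placed at its knockout minus WT difference (log2); red and blue points are called higher and lower, grey points are not called, black bars mark list medians and the dashed line the median of all genes. The cell cycle, proteasome and mitochondrial lists lie left of 0, with a median of -1.05 for mitosis, and the macrophage list lies right of it at +1.78.

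Within the mTORC1 pathway itself, few transcripts passed the threshold. Of 43 genes of the complex and its regulators, 5 fell (11.6%, against 8.63% of all genes) and 1 rose (2.33%, against 3.2%), shares close to those of all genes. The genes that fell were Rraga, a Rag GTPase that recruits mTORC1 to the lysosome (-0.88), Mlst8, a subunit of the complex (-0.82), Nprl3 of the GATOR1 inhibitor (-0.83), Sec13 of GATOR2 (-0.67) and Lamtor1, the lysosomal anchor of the Rag GTPases (-0.62), and Fnip1, a folliculin partner, rose by 0.83; apart from Rraga, these were named after their values were seen. Only Rraga passed in the 12-pool fit (adjusted p = 0.0391), and the count of lower genes was 14, 0 and 6 without WT pools 1, 2 and 3. Tsc1, a subunit of the complex that inhibits mTORC1, read 9.08, 8.66 and 8.58 in WT and 9.16 and 9.32 in the knockout (+0.46, adjusted p = 0.202).

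Most cell cycle genes fell, and of the 46 lists that of mitosis had the largest share of lower genes (81.8%, followed by the proteasome with 72.7%). Of 77 genes of mitosis and cytokinesis 63 fell and none rose (background 8.63% lower), with a median difference of -1.05. In the 12-pool fit 45 fell (background 2.87%). Both knockout arrays lay below all 4 WT arrays for 73 of the 77, against 26.1% of all genes. Plk1, a kinase of mitotic entry and spindle assembly, read 10.52, 10.09 and 10.21 in WT and 8.47 and 8.12 in the knockout, and fell by 1.98 ± 0.20 (3.94-fold, adjusted p = 0.00395). Cdk1, the kinase that drives entry into mitosis, read 10.69, 10.79 and 10.57 in WT and 9.70 and 8.66 in the knockout (-1.50 ± 0.16, adjusted p = 0.00484). The 2 knockout arrays of Cdk1 are a log2 unit apart and both below every WT array. With first arrays only the difference of Cdk1 was -1.09. Bub1 of the spindle checkpoint (-1.70), the cytokinesis motor Kif20a (-1.68) and cyclin A2, Ccna2 (-1.63), fell by more than 3-fold. The proliferation marker Mki67 read 10.58, 10.57 and 10.37 in WT and 9.47 and 9.38 in the knockout, and fell 2.12-fold (adjusted p = 0.0103).

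Genes of DNA replication and of the G1 to S transition fell as well. Of 54 replication genes 31 fell and all 54 had a negative difference (median -0.75); 16 fell in the 12-pool fit and 18 without WT pool 2. Rrm2, the regulated subunit of the reductase that makes deoxynucleotides, read 10.98, 11.12 and 11.37 in WT and 9.22 and 8.77 in the knockout, 4.48-fold lower (-2.16 ± 0.19, adjusted p = 0.00311). The partner subunit Rrm1 fell by 1.34, Rpa3 of the single-strand binding complex by 1.57 and Gins1 of the replicative helicase by 1.23. The chromatin remodeller Hells read 8.01, 8.29 and 8.04 in WT and 7.13 and 6.35 in the knockout (-1.37 ± 0.17, adjusted p = 0.00704). Of 27 G1 cyclins, their kinases and E2F factors 15 fell and none rose; 9 fell in the 12-pool fit and 8 without WT pool 2. Cyclin E2, Ccne2, read 8.59, 9.16 and 9.37 in WT and 7.60 and 6.67 in the knockout (-1.90 ± 0.28), and the Cdk-binding protein Cks1b, the factor E2f2 and its partner Tfdp1 fell by 1.16, 1.33 and 0.99. Cyclin D1, Ccnd1, read 11.66, 11.52 and 11.40 in WT and 11.23 and 11.21 in the knockout, a difference of -0.31 that did not pass (adjusted p = 0.265).

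No inhibitor of the cycle that was tested was called higher. Cdkn1a was not tested, since it shares its probeset with another symbol. Of 7 CDK inhibitors tested, 3 fell (42.9%, against 8.63% of all genes) and none rose. Those that fell were Cdkn1c, Cdkn2c and Cdkn3, the last named after its value was seen. Cdkn1c, the inhibitor p57, read 10.20, 10.45 and 10.15 in WT and 8.55 and 8.45 in the knockout, 3.4-fold lower (adjusted p = 0.0039, and 0.0736 in the 12-pool fit). Cdkn2c fell by 0.79 (adjusted p = 0.033); with the first arrays alone its difference was -0.49 (adjusted p = 0.105). None of the 3 passed in the 12-pool fit, and 3, 1 and 2 of the 7 fell without WT pools 1, 2 and 3.

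Promoters of the lists were searched for short motifs because many genes in them moved together. The windows, from RefSeq on GRCm38.p6, run from 250 bases before to 50 bases after each gene's start, and all motifs were counted on both strands. The CHR element, TTTGAA, an element of mitotic promoters, was in 40 of the 64 mitosis promoters at hand (62.5%), in 12% of the 10995 promoters of tested genes and in 18.1% of all 27025 promoters. The CCAAT box, CCAAT, was in 71.9% of mitosis promoters, 37.6% of those of tested genes and 37.9% of all. The E2F motif, TTTNNCGC, was in 16 of 45 replication promoters (35.6%), in 17.2% of mitosis promoters, in 8.01% of those of tested genes and in 5.27% of all. CHR was in 11.1% of replication promoters, near its share among tested genes. A base could count for more than 1 motif, and a match is a description, not a site shown to be bound. Cdk1 is shown because its window holds all 3 motifs, and Hells because it holds the E2F motif without the other 2 in the stretch printed, which is the 150 bases before each start, on the gene's strand, 5′ to 3′, with motifs in capitals (ATTGG is the CCAAT box on the other strand).
Cdk1, chr10:69352913-69353062, minus strand: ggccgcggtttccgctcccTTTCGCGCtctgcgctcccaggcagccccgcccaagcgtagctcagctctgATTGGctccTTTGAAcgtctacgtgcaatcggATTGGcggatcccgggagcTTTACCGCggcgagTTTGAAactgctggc
Hells, chr19:38930840-38930989, plus strand: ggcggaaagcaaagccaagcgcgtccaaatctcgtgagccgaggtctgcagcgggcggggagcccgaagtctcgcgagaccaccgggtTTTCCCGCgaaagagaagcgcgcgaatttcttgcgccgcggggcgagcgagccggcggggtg

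**Figure D3:**
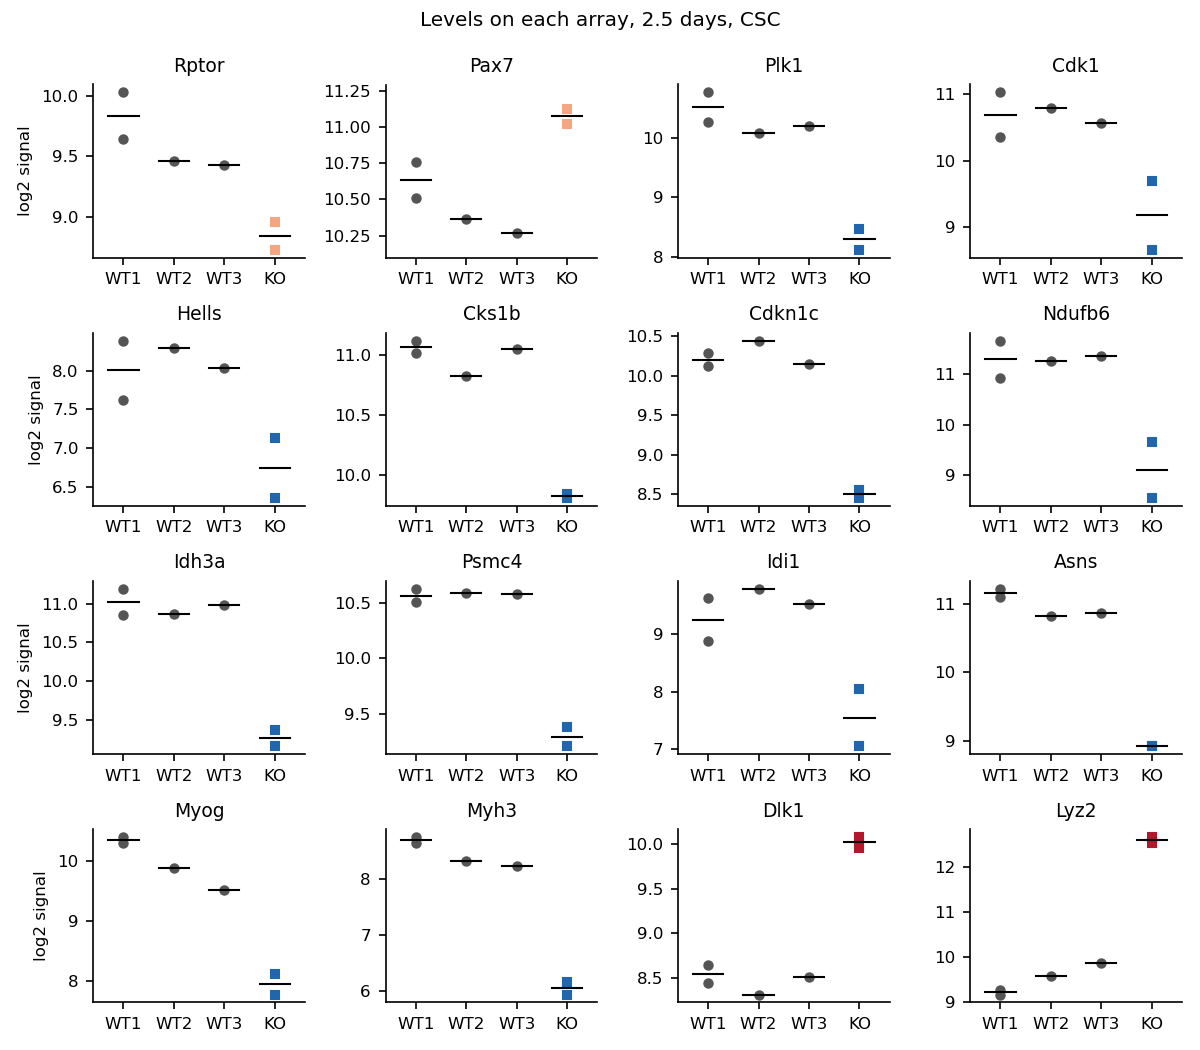
Each panel gives a gene's log2 signal on every array, grey circles for the WT pools and squares for the 2 knockout arrays, with black bars at pool means; blue squares mark genes called lower, red squares genes called higher and light orange squares genes not called. For every gene drawn, both knockout arrays lie on 1 side of all 4 WT arrays, also for the uncalled Rptor and Pax7, and the vertical axes do not start at 0.

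Mitochondrial genes fell in number. Of 78 genes of oxidative phosphorylation 36 fell and 2 rose (median -0.66), of 23 genes of the TCA cycle 15 fell and none rose (-0.76), and of 76 mitochondrial ribosome genes 39 fell and 1 rose (-0.63). In the 12-pool fit 14, 8 and 18 of these fell, and without WT pool 2, which lowered the counts most, 20, 9 and 21. Ndufb6, a subunit of complex I, read 11.30, 11.27 and 11.36 in WT and 9.65 and 8.54 in the knockout, 4.64-fold lower (-2.21 ± 0.15, adjusted p = 0.00148). Its knockout arrays lie far apart, and both are below all WT arrays. With first arrays only the difference of Ndufb6 was -1.79. Other respiratory subunits fell by similar or smaller amounts: Ndufs1 of complex I by 1.30, Sdhb of complex II by 1.13, Cyc1 of complex III by 1.33 and Cox5a of complex IV by 1.33. Idh3a, a subunit of the NAD-dependent isocitrate dehydrogenase, read 11.02, 10.87 and 10.98 in WT and 9.37 and 9.17 in the knockout, 3.23-fold lower (adjusted p = 0.00311), and fumarate hydratase, Fh1, fell by 1.20. Mitochondrial ribosomal proteins that fell included Mrpl18 (-1.60), Mrps18c (-1.46) and Mrpl11 (-1.41). In the import list 7 of 33 fell, led by Tomm22 of the outer membrane translocase (-1.01), with 2 in the 12-pool fit and 21, 1 and 5 without WT pools 1, 2 and 3. Against the direction of their lists Cox7a2l (+0.75) and Mrpl52 (+0.82), both named after their values were seen, rose without passing in the 12-pool fit. The other exception was Cox8b, the muscle form of a complex IV subunit, which read 7.20, 7.21 and 7.40 in WT and 8.48 and 8.77 in the knockout and rose 2.56-fold (adjusted p = 0.00583).

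Of 22 glycolytic genes 7 fell and 1, the neuronal enolase Eno2, rose (+0.67, named after its value was seen); 3 fell and none rose in the 12-pool fit and 4 without WT pool 2. Eno3, the muscle enolase, read 12.05, 11.83 and 12.14 in WT and 9.61 and 9.44 in the knockout, 5.57-fold lower (-2.48 ± 0.17, adjusted p = 0.00148). Phosphoglycerate kinase, Pgk1, fell by 1.52 and triosephosphate isomerase, Tpi1, by 1.32. Both are also targets of the hypoxia factor in other tissues. Of 17 genes on the hypoxia list 3 fell (17.6%, against 8.63% of all genes). Among these were the prolyl hydroxylase Egln3 (4.43-fold) and the mitophagy receptor Bnip3 (2.22-fold). The hypoxia factor Epas1 rose by 0.88 (named after its value was seen), but not in the 12-pool fit. In all, 12 of the 17 had a positive difference and 5 a negative one, with a median of +0.13. Of 22 genes of fatty acid oxidation 7 fell and 2 rose, the fatty acid transporter Cd36 (+1.07) and the lipase Lpl (+0.65), both named after their values were seen. Acaa2, the mitochondrial thiolase, fell by 0.95 and Hadhb of the trifunctional protein by 0.92; 2 of the list fell and none rose in the 12-pool fit, and 4 fell without WT pool 2. Eno3 and Cox8b also stand on the list of mature fibre markers, of which 10 of 21 fell; the part of fibre transcripts in the metabolic lists was not tested.

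Sterol synthesis genes fell in part. Of 20 genes 9 fell and none rose, with a median difference of -0.69; 3 fell in the 12-pool fit, and 12, 5 and 10 without WT pools 1, 2 and 3. Idi1, which isomerises the building block of all isoprenoids, read 9.25, 9.78 and 9.51 in WT and 8.04 and 7.05 in the knockout, 3.91-fold lower (-1.97 ± 0.22, adjusted p = 0.00501, and 0.0303 in the 12-pool fit). Both knockout arrays of Idi1 lie below all WT arrays, and with first arrays only the difference was -1.59. Nsdhl, which acts in the removal of methyl groups from the sterol ring, read 9.16, 8.96 and 8.82 in WT and 7.69 and 7.98 in the knockout (-1.14 ± 0.18, adjusted p = 0.0114). Fdps, which makes farnesyl diphosphate, fell by 0.90 (adjusted p = 0.0214; the call was lost without WT pool 2). In the list of fatty acid synthesis 2 of 20 genes fell (10%, near the 8.63% of all genes), with 1 in the 12-pool fit and 8, 2 and 3 without WT pools 1, 2 and 3. One was the desaturase Scd2, which read 11.18, 10.85 and 10.86 in WT and 9.48 and 9.11 in the knockout (3.19-fold, adjusted p = 0.00501), and the other, named after its value was seen, the acyltransferase Gpam (-1.03), which did not pass in the 12-pool fit.

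The CCAAT box, where the factor NF-Y binds beside sterol response elements in promoters of this pathway, was in 15 of 16 sterol promoters at hand (93.8%), against 37.6% of those of tested genes and 37.9% of all. The sterol response motif searched, ATCACCCCA, was in 1 of the 16, in 0.2% of promoters of tested genes and in 0.263% of all. The windows of Idi1 and Nsdhl, the members that fell furthest among those passing in both fits, each hold 2 CCAAT boxes in the 150 bases before the start (capitals, written ATTGG on the strand shown).
Idi1, chr13:8885456-8885605, plus strand: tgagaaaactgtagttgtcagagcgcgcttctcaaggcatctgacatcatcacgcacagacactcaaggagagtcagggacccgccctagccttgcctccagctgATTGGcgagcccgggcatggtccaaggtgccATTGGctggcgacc
Nsdhl, chrX:72918371-72918520, plus strand: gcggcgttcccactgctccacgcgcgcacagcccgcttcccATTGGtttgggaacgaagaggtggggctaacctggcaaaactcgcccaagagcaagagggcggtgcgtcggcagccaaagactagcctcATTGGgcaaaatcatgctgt

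Genes of amino acid supply under the factor ATF4 fell in part: 9 of 33 fell and none rose (median -0.36), 4 in the 12-pool fit, and 15, 7 and 9 without WT pools 1, 2 and 3. Asns, asparagine synthetase, read 11.16, 10.81 and 10.86 in WT and 8.93 on both knockout arrays, 4.04-fold lower (-2.01 ± 0.18, adjusted p = 0.00311). The 3 enzymes that make serine from a glycolytic intermediate fell together: Phgdh (-1.41), Psat1 (-1.84) and Psph (-1.08), with adjusted p between 0.00311 and 0.00912, and all 3 passed in the 12-pool fit. Of 21 genes of purine and pyrimidine synthesis 8 fell, led by the nucleoside diphosphate kinase Nme1 (-1.15) and the purine enzyme Gart (-1.01), and of 21 cytosolic tRNA synthetases and their partners 6 fell, led by Kars (-0.88) and Wars (-0.94). None of them passed in the 12-pool fit. Without WT pools 1, 2 and 3 the counts were 16, 2 and 5 for nucleotide synthesis and 14, 2 and 5 for the synthetases.

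Cytosolic ribosomal proteins hardly passed, and a minority of ribosome biogenesis and translation factors fell. Of 55 cytosolic ribosomal proteins 1 rose, Rps21 (+0.87, adjusted p = 0.0179), and none fell; the median difference was +0.14. In all, 49 of the 55 had a positive difference and 6 a negative one, and the count of higher genes was 12 without WT pool 1 and 0 without WT pool 2. Of 54 ribosome biogenesis factors 6 fell (11.1%, near the 8.63% of all genes) and none rose, with a median of -0.45. A negative difference was found for 52 of the 54, against 50.9% of all genes. Both knockout arrays lay below all 4 WT arrays for 33 of the 54, against 26.1% of all genes. Dkc1, the pseudouridine synthase of ribosomal RNA, fell 2.36-fold and the assembly factor Pno1 2.08-fold. Of 37 translation factors 7 fell (18.9%, against 8.63% of all genes), among them the release factor Gspt1 (-0.91), and none rose. In all, 28 of the 37 had a negative difference, with a median of -0.40. The biogenesis count was 2 in the 12-pool fit and 38, 2 and 4 without WT pools 1, 2 and 3, and that of translation factors 1 in the 12-pool fit and 19, 1 and 5.

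The proteasome, which degrades ubiquitin-tagged proteins, was lower across its subunits: 24 of 33 subunit genes fell, none rose and all 33 had a negative difference, with a median of -0.80. Psmc4, an ATPase of the regulatory particle, read 10.56, 10.59 and 10.58 in WT and 9.20 and 9.38 in the knockout, 2.44-fold lower (-1.29 ± 0.15, adjusted p = 0.00505). Psmd6 and Psmd2 of the same particle fell by 1.38 and 1.06 and Psma6 of the catalytic core by 1.12. The count was 12 in the 12-pool fit and 13 without WT pool 2. Chaperones went both ways, with 4 of 26 lower, Hspa4 (-0.90) and the chaperonin subunits Cct8 (-0.84), Tcp1 (-0.67) and Cct3 (-0.57), and 3 higher, Dnajb1 (+0.79), Hspb1 (+0.67) and Bag3 (+0.70). Of these only Hspa4 passed in the 12-pool fit, and the others were named after their values were seen.

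A minority of lysosomal genes rose. Of 61 genes of the lysosome and autophagy 11 rose (background 3.2%), none fell and 50 were not called, with a median of +0.18 and a negative difference for 19; 6 rose in the 12-pool fit, and 19, 7 and 7 without WT pools 1, 2 and 3. Gpnmb, a lysosomal glycoprotein, read 8.98, 8.47 and 8.78 in WT and 12.04 and 11.89 in the knockout, 9.32-fold higher and the largest rise of the genes named (+3.22 ± 0.21, adjusted p = 0.00148). The protease cathepsin S, Ctss, read 7.23, 7.34 and 7.54 in WT and 10.33 and 9.87 in the knockout (+2.73 ± 0.17, adjusted p = 0.00148) and is on the macrophage list too. Smaller rises were those of the proteases Ctsh (+1.14) and Ctsb (+0.95) and of Hexa, a subunit of hexosaminidase (+1.00). Macrophages are rich in these enzymes, and the macrophage markers above rose in the same pool by a median of +1.78; their part in the lysosomal rise was not tested. The E-box of lysosomal promoters, TCACGTGA, was in 7 of 50 lysosome promoters at hand (14%), in 1.76% of those of tested genes and in 1.01% of all.

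Some genes tied to satellite cell identity and quiescence rose. Of 47 such genes 7 rose (14.9%, against 3.2% of all genes) and 1, Cdkn1c, fell (2.13%, against 8.63%); 3 rose and none fell in the 12-pool fit, and 19, 3 and 5 rose without WT pools 1, 2 and 3. Dlk1, a membrane ligand related to Delta and known to restrain satellite cell proliferation, read 8.54, 8.31 and 8.50 in WT and 9.96 and 10.08 in the knockout, 2.96-fold higher (+1.57 ± 0.16, adjusted p = 0.00457). Gas6, a growth-arrest-specific ligand of TAM receptors, read 9.49, 9.72 and 9.54 in WT and 10.84 on both knockout arrays (+1.25). Bmp6, a bone morphogenetic protein, rose by 0.90 (adjusted p = 0.0153). The groups did not overlap for any of these 3 genes. Spry1, an inhibitor of growth factor signalling that marks quiescent cells, differed by +0.17 (adjusted p = 0.562). In the Notch pathway, which maintains quiescence, the targets Hes1 (+0.19) and Heyl (+0.11) did not pass, the ligand Jag1 rose by 0.72 (named after its value was seen; not in the 12-pool fit), and Hes6, an antagonist of Hes1 that promotes differentiation, fell 3.83-fold (-1.94 ± 0.20, adjusted p = 0.00453).

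Genes of commitment, differentiation and fusion fell in part. Of 46 such genes 21 fell and 1, the surface receptor Boc, rose (+0.80, named after its value was seen), with a median of -0.93; 5 fell and none rose in the 12-pool fit. Myog, the factor that opens terminal differentiation, read 10.36, 9.89 and 9.52 in WT and 7.78 and 8.12 in the knockout, 3.93-fold lower (-1.97 ± 0.29, adjusted p = 0.00996, and 0.119 in the 12-pool fit). Embryonic myosin, Myh3, read 8.69, 8.32 and 8.24 in WT and 5.94 and 6.16 in the knockout, 5.17-fold lower (adjusted p = 0.00311, and 0.0106 in the 12-pool fit). WT pool 1 had the highest level of both genes, and the knockout arrays lay below all WT arrays. Klhl41, a sarcomere-associated protein, fell 5.41-fold, the slow troponin Tnnt1 2.26-fold and the calcium-binding Casq2 2.21-fold. Myod1 and Myf5, which act before Myog, did not pass, as given above.

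Among 21 markers of mature fibres 10 fell and 1, Cox8b, rose (median -0.92; 2 fell in the 12-pool fit). Actn3, the actinin of fast fibres, read 10.95, 10.40 and 9.97 in WT and 7.79 and 7.60 in the knockout, 6.69-fold lower (-2.74 ± 0.33, adjusted p = 0.00588). Acta1, skeletal actin, fell by 1.78, the calcium pump Atp2a1 by 1.96 and titin, Ttn, by 2.29, whereas creatine kinase, Ckm (-0.37), myoglobin, Mb (-0.11), and parvalbumin, Pvalb (-0.10), did not pass. Summed on the linear scale all 26 markers on the array, tested or not, gave 5507 signal units in the knockout and 13520 to 17754 in the WT pools. The fibre and myogenic lists share 10 tested members, Acta1 and Ttn among them, and from which cells these transcripts came was not tested.

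Among the 15 largest falls 2 were on the fibre list, 2 on the myogenic list and 2 on the mitosis or replication lists. The list also held Mest, an imprinted gene of mesoderm, which read 11.47, 11.17 and 11.31 in WT and 9.01 and 8.69 in the knockout (5.53-fold, adjusted p = 0.00148). Cavin4, a muscle caveola protein, fell 4.87-fold, the secreted protein Lrrc17 4.45-fold, Atp1b1 of the sodium pump 4.32-fold and the splicing regulator Mbnl3 4.28-fold. Dynap fell furthest of all named genes, 7.28-fold, from WT levels of 9.59, 8.22 and 9.23 to knockout levels of 6.28 and 6.01 (adjusted p = 0.0117).

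Inflammatory and early-response genes rose in part, in shares above that of all genes. Of 29 genes of the NF-kB and cytokine response 5 rose (17.2%, against 3.2% of all genes) and none fell, with a median of +0.41. The count was 3 in the 12-pool fit and 14, 5 and 4 without WT pools 1, 2 and 3. Ccl7, a monocyte-attracting chemokine, read 9.09, 8.80 and 8.94 in WT and 10.33 and 10.45 in the knockout, 2.72-fold higher (+1.44 ± 0.17, adjusted p = 0.0058). Ccl11, which attracts eosinophils, rose by 1.50 and Ccl2, the main monocyte chemokine, by 0.92; Cxcl10 (+1.57) and Nfkbiz (+0.69), named after their values were seen, did not pass in the 12-pool fit. Of 39 immediate early genes, which also respond to cell dissociation, 6 rose (15.4%), led by Maff (+0.83) and Ier3 (+0.84). Of the 39, 34 had a positive difference, with a median of +0.41. For 25 of them both knockout arrays lay above all 4 WT arrays, against 18.5% of all genes. None rose in the 12-pool fit, and 19, 0 and 3 rose without WT pools 1, 2 and 3. Among 34 growth factor receptors, ligands and feedback genes 3 rose, Igf1 (+1.13), Fgf2 (+0.74) and Irs2 (+0.81), and Akt1 fell (-0.59), none in the 12-pool fit; Irs2 and Akt1 were named after their values were seen. Met, the receptor for hepatocyte growth factor, read 10.94, 10.63 and 10.84 in WT and 10.83 and 10.21 in the knockout (-0.28, adjusted p = 0.313). Macrophages also make several of these chemokines, and their part was not tested.

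The other knockout collected at the same time served to ask which differences from WT also set the Rptor knockout apart from another deletion. The cMet knockout mice were cMetflox/flox;Pax7CreER/+;Rosa26REYFP/+, which lack the receptor for hepatocyte growth factor in the same cells, and were treated alike. They are of strain "C57BL6 mixed FVB" and form 1 pool on 2 arrays, so strain, pool and genotype cannot be told apart. Between the 2 knockouts, with the spread again from the WT pools, 44 genes were higher in the Rptor knockout (0.315%) and 170 lower (1.22%). In the 12-pool fit 6 were higher (0.043%) and 15 lower (0.107%), and leaving out WT pools 1, 2 and 3 gave 962 and 2016, 23 and 78, and 87 and 296. Both knockouts share the WT pools as controls, so their differences from WT are not independent of each other and are only drawn side by side, and the counts and differences that follow are direct, 1 pool against 1.

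Of 20 sterol synthesis genes 5 were called lower in the Rptor pool than in the cMet pool and none higher, with a median difference of -1.0. The p-values rest on the spread of the WT pools alone, and the call was not held in every fit: the count was 0 in the 12-pool fit, 4 with the first arrays alone, and 13, 4 and 10 without WT pools 1, 2 and 3. Idi1 had a level of 10.20 in the cMet knockout and 7.55 in the Rptor knockout, a difference of -2.66 ± 0.27 (limma adjusted p = 0.0144, and 0.109 in the 12-pool fit). The others, named after their values were seen, were Msmo1 (-2.31 ± 0.24), Cyp51 (-2.03 ± 0.22), Hsd17b7 (-1.43 ± 0.19) and Sc5d (-1.35 ± 0.18), all enzymes of the steps from lanosterol to cholesterol, with adjusted p of 0.0148 to 0.0262 and, in the 12-pool fit, 0.165 to 0.26. Scd2 (-1.71, adjusted p = 0.0246), Asns (-1.49, adjusted p = 0.0321) and Cdkn1c (-1.50, adjusted p = 0.0292) were also called lower in the Rptor pool, and none of these 3 passed in the 12-pool fit.

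Few cell cycle genes were called between the knockout pools: of the 77 mitosis genes none was called in either direction, and of the 54 replication genes 1 was higher in the Rptor knockout and none lower, against medians of +0.26 and +0.27. Without WT pool 1, 20 mitosis and 15 replication genes were higher in the Rptor knockout and 2 and 3 lower. Plk1, for instance, had a level of 7.62 in the cMet knockout (difference +0.67, adjusted p = 0.179) and Cdk1 of 8.88 (+0.30, adjusted p = 0.428). Other lists that fell against WT also had few calls here. None was called for the TCA cycle (median -0.17), the mitochondrial ribosome (+0.01) or the proteasome (-0.27). Of the oxidative phosphorylation genes 1 was higher and 1 lower (-0.03), or 6 and 11 without WT pool 1. In the myogenic list 1 was lower (-0.04) and in the fibre list 1 was higher (+0.02). A difference that misses the threshold with 1 pool against 1 does not show that the knockouts are alike; the median SE over all genes was 0.204 on the log2 scale. Of 22 macrophage markers 11 were called higher in the Rptor pool and none lower, with a median of +1.16 (1 in the 12-pool fit; 18, 8 and 13 without WT pools 1, 2 and 3). On this list C1qb differed by +2.62 and Tyrobp by +2.20. Outside the list C3ar1 differed by +2.72, Gpnmb by +2.59 and Mpeg1 by +2.36. Each of these genes had an adjusted p of 0.0144, and all but C1qb also passed in the 12-pool fit, with Tyrobp the only list member to do so. Of 24 endothelial markers 10 were called lower in the Rptor pool and none higher, with a median of -1.02 (1 in the 12-pool fit, 5 with the first arrays alone, and 21, 9 and 11 without WT pools 1, 2 and 3). Dlk1 was higher in the Rptor knockout by 1.70 (adjusted p = 0.0161, and 0.168 in the 12-pool fit) and Cox8b by 1.64 (adjusted p = 0.0172, 0.0655 in the 12-pool fit and 0.0564 with the first arrays alone). Other genes higher than in WT were not called between the knockouts: Ccl7 (+0.10), Ccl11 (+0.05), Ccl2 (+0.07), Gas6 (+0.23), Bmp6 (+0.19) and Igf1 (-0.40).

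**Figure D4:**
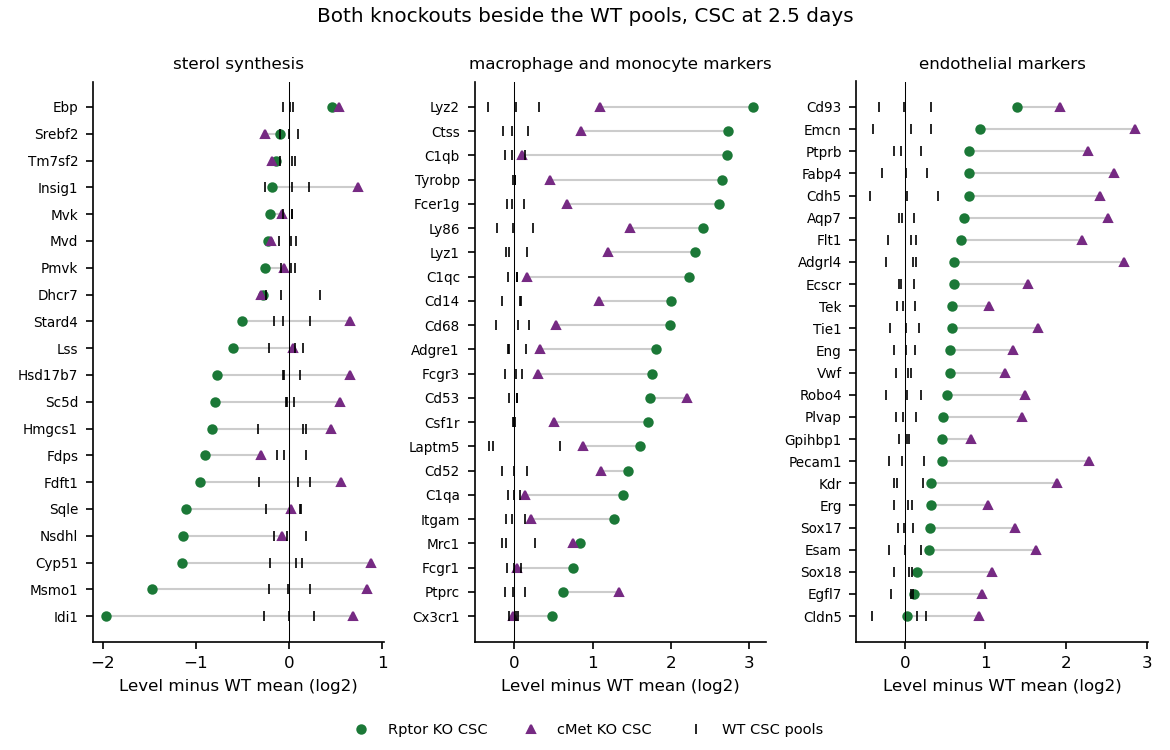
For each gene of 3 lists the level in the Rptor knockout (green circles), the cMet knockout (purple triangles) and each WT pool (black ticks) is drawn minus the WT mean (log2), with genes ordered by the Rptor knockout. Idi1 lies at -1.97 in the Rptor knockout and above the WT mean in the cMet knockout, most macrophage markers lie further right in the Rptor knockout, and endothelial markers further right in the cMet knockout.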

How the data were processed

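Per the submitters' processing notes, the authors used RMA and Affymetrix Expression Console, and the deposited values are log2 probeset signals. The version, the genome build and the set of arrays normalized jointly were not given in the sources used here. RMA sets arrays to a common distribution, so a shift shared by most genes cannot be seen. Of 35556 probesets 21789 had 1 gene symbol in the platform table, 1621 several and 12146 none, and 998 genes had several probesets, of which the brightest was used. Arrays of a pool were averaged. Genes under the 30th percentile of mean signal (log2 6.48) were left out. Differences came from limma 3.58.1 (functions lmFit and eBayes; R 4.3.3) on the 4 pools (prior degrees of freedom 5.37, residual 2; median SE 0.166), with Benjamini-Hochberg adjustment over 13957 genes and a threshold of 0.05. The number of arrays limits the precision. Every adjusted p is from such a fit.

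In 10 simulated data sets with 200 changed genes, tested for the Rptor knockout against WT, changes of 1, 2 and 3 log2 units were recovered for 94.0%, 100% and 100% of genes, with 7.63% of calls false. The false share is above the one that the threshold of 0.05 aims at. The simulated knockout pool had the WT means and WT spread, and genes varied independently. These rates therefore cannot show whether the real knockout pool varies as WT pools do. The genes, the 46 gene lists and the tests were chosen with earlier results of these data known. Named genes were a fixed panel; the 15 largest rises and 15 largest falls that passed in both the 4-pool and the 12-pool fit with both knockout arrays outside the WT arrays, leaving out predicted genes and small RNAs; up to 5 members a list by p in its main direction and 2 in the other; and cell type markers. Of the panel's genes, Cdkn1a shares its probeset with another symbol and a few others are not given. Alternatives changed the pools fitted, the normalization, the filter, the probeset rule, the arrays used, the variance model and the WT pools included. Fits of the first arrays over all 12 pools, and of the first arrays for the cMet comparison, were added after seeing the data. Promoter and microRNA sequences are RefSeq's, on GRCm38.p6.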

Additional observations from a re-analysis of the deposited data

How the results depend on the processing

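No paired analysis was possible because the knockout pools carry no biological replicate number and are 1 each. Against WT, the counts of higher and lower genes were 447 and 1204; 136 and 400 with all 12 pools (171 and 435 with first arrays only, added after seeing the data); 783 and 993 after quantile normalization again; 1183 and 1954 with the second knockout array alone; 1618 and 2849 with arrays in pools as a random effect; 938 and 1969 with every array a replicate. Leaving out a WT pool gave 189 to 1899 higher and 536 to 2750 lower, the highest without pool 1 and the lowest without pool 2. Against the cMet knockout, 44 and 170 became 6 and 15 with all 12 pools and, leaving out a WT pool, 23 to 962 and 78 to 2016; the first arrays gave 41 and 106, an alternative added after seeing the data. The causes were not tested.

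Of 145 named genes 120 were past the threshold, 90 of them under each of the 17 alternatives, and none of the 120 changed sign in any. The call was lost by 19 with all 12 pools, by 17 without WT pool 2 and by 4 on the first arrays. Uncalled genes that changed sign were Calcr (-0.027 to 0.085 leaving out a WT pool), Cd34 (0.0009) and Met (0.022) with the first knockout array alone, Myf5 (-0.026 with the second knockout array alone, -0.20 to 0.23 leaving out a WT pool) and Myod1 (-0.0032 with the first knockout array alone, -0.11 to 0.14 leaving out a WT pool).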

Other observations

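A group of neighbouring genes, most of them outside the lists, rose in part. Dlk1, described among the quiescence genes, is the first gene of an imprinted interval that ends at Dio3 and holds the noncoding RNAs Meg3 and Rian and a large cluster of microRNA genes, which are transcribed from the maternal chromosome. The interval was looked at after the rise of Dlk1 was seen, and its genes were taken from the RefSeq order between Dlk1 and Dio3. Of its 34 tested genes 21 were higher in the Rptor knockout than in WT and none lower, and all 34 had a positive difference, with a median of +0.98, against 3.2% of all tested genes higher. The count was 29, 19 and 21 without WT pools 1, 2 and 3. In the 12-pool fit 9 were higher and with the first arrays alone 23. Against the cMet knockout 1 was higher, Dlk1 itself. Without the filter on low signal 25 of 47 were higher and all 47 positive.

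Rian read 8.33, 8.01 and 8.38 in WT and 9.62 and 9.53 in the knockout (+1.33 ± 0.19, limma adjusted p = 0.00912, and 0.079 in the 12-pool fit). Meg3 read 10.87, 11.23 and 10.50 in WT and 11.73 and 11.92 in the knockout, a difference of +0.96 that did not pass (adjusted p = 0.0563). Of the 29 microRNA genes tested in the interval 18 were higher, and of the 103 microRNA genes tested elsewhere 16 were higher, with medians of +1.00 and +0.39. In the 12-pool fit the counts were 8 and 2, and those elsewhere were 54, 3 and 7 without WT pools 1, 2 and 3. A positive shift is thus also present in microRNA genes outside the interval, 92 of 103 of which had a positive difference.

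The 8 microRNA genes of the interval called in both fits were Mir134, Mir323, Mir337, Mir341, Mir485, Mir540, Mir665 and Mir668. Mir485 read 8.95, 8.86 and 8.96 in WT and 10.18 and 10.20 in the knockout, 2.41-fold higher (adjusted p = 0.00574). Mir341 read 10.20, 10.06 and 9.88 in WT and 11.28 and 11.54 in the knockout (2.57-fold), and Mir665 read 7.65, 7.39 and 7.13 in WT and 9.45 and 8.65 in the knockout (3.15-fold). The arrays of the groups did not overlap for these 3 genes. The probesets read the RNA of the gene and do not separate the mature arms. The 8 genes have 15 mature sequences in RefSeq, with 15 different seeds, so the group does not consist of copies of 1 seed. An arm of each of the 3 genes with values above, and of Mir134, is given to show this, 5′ to 3′ with the seed (bases 2 to 8) in capitals.
mmu-miR-485-3p: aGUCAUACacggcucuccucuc
mmu-miR-341-3p: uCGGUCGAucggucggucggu
mmu-miR-665-3p: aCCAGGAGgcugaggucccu
mmu-miR-134-5p: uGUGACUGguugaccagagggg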
